A study of Mus musculus with 16 samples.

Results

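Genes of natural killer (NK) cells and cytotoxic T cells were followed through whole lung of Vldlr knockout (KO) and wild-type (WT) mice that had received house dust mite (HDM), an inhaled allergen, or saline. They were Nkg7, Gzma, Gzmb, Prf1, Klrd1, Ncr1, Eomes, Tbx21 and Ifng, 9 of the 19938 genes measured. Each was taken from the probe set annotated with that symbol alone, and the probe set with the highest mean would have been kept had there been several. Each of the 9 had 1 such probe set. The 4 groups were KO mice on HDM, KO mice on saline, WT mice on HDM and WT mice on saline, with 4 Affymetrix arrays each and 16 in all. HDM was given through the nose at 25 µg in 10 µl on 5 days a week for 6 weeks, and saline in the same volume. The WT strain was B6129SF2/J. The KO mice lacked Vldlr, a lipoprotein receptor, and their strain, the ages of the animals and how many animals each RNA sample came from were not given in the labels. Loss of Vldlr and strain background therefore cannot be told apart where KO is compared with WT. The labels call the arrays of a group biological replicates, and p-values measure the spread between those samples.

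NK cells and cytotoxic T cells kill by releasing granules onto a target. Perforin, the product of Prf1, opens the target's membrane, and granzymes such as those of Gzma and Gzmb are proteases that enter and start cell death. Receptors on the NK cell set whether it fires, and the T-box factors of Eomes and Tbx21 drive the killing programme and the making of interferon gamma, the product of Ifng. In the lung these cells are best known for their part in viral infection, and asthma-like responses to HDM are usually described through type 2 lymphocytes, eosinophils and mast cells.

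Levels are log2 values after RMA, a normalization that puts arrays on a common distribution, and levels of different genes are not comparable with each other. A gene passed the test at an adjusted p below 0.05, from limma with Benjamini-Hochberg adjustment over all 19938 genes. The 4 groups share a common estimate of each gene's spread. Leaving out an array can therefore move a call in a comparison that does not include it. The median of an array was 8.78 to 8.85, and pairs of arrays correlated at 0.9798 to 0.9954. Vldlr was lower in KO than in WT by 0.93 under HDM (adjusted p = 0.000277) and by 0.76 under saline (adjusted p = 0.00697). On WT saline arrays 2 and 3 the eosinophil gene Alox15 stood at 9.93 and 9.84, against 8.92 and 9.15 on the other WT saline arrays and 8.79 to 9.20 on the KO saline arrays. For the 9 genes the calls with HDM in WT and over both genotypes are given with and without these arrays. In the other comparisons no call of the 9 genes changed without them. For the related genes values without them are given where these changed most. Without them Vldlr under saline was at -0.81 (adjusted p = 0.0551).

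Promoters are shown for 4 of the 5 genes that fell with HDM over both genotypes, Nkg7, Gzma, Prf1 and Ncr1. Of the 3 short words marked in them, only TGTGGT is in all 4. Each runs 5′ to 3′ from 250 bases before to 50 bases after the start of the gene (RefSeq, GRCm38.p6). Capitals mark GTGTGA, a T-box word, TGTGGT, a Runx word, and TTCNNNGAA, a Stat word, on either strand. A promoter was found in RefSeq's table for 8 of the 9 genes, all but Klrd1. Ncr1 also had an entry starting at chr7:4337474, not shown, which held the same words.
Nkg7, chr7:43436888-43437187, plus strand: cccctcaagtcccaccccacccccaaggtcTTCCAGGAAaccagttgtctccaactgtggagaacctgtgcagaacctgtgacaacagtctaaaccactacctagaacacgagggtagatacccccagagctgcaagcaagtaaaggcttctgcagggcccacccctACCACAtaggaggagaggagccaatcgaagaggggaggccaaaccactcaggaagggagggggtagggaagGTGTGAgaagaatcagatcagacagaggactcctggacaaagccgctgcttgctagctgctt
Gzma, chr13:113100932-113101231, minus strand: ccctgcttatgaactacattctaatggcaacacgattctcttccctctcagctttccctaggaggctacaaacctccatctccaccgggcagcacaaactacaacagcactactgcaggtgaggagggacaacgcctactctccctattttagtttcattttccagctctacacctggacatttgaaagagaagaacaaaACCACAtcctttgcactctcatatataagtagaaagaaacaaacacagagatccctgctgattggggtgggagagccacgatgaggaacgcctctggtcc
Prf1, chr10:61297586-61297885, plus strand: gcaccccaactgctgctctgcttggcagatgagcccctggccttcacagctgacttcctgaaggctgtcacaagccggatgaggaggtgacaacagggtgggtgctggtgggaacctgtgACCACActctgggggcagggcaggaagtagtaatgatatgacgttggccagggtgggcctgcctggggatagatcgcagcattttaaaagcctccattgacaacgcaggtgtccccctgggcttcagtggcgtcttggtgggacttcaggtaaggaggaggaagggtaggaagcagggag
Ncr1, chr7:4337465-4337764, plus strand: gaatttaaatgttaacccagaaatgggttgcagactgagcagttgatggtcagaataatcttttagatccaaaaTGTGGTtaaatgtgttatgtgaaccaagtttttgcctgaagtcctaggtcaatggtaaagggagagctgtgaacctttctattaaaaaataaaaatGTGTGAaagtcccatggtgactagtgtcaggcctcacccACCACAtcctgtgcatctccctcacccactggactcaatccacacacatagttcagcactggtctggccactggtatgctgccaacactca
TGTGGT was present in the promoters of 5 of the 8 genes (Nkg7, Gzma, Gzmb, Prf1 and Ncr1), against 16.8% of 32851 promoters in the table. GTGTGA was present in 3 of the 8 (Nkg7, Gzmb and Ncr1), against 14.5% of promoters. TTCNNNGAA was present in 3 of the 8 (Nkg7, Gzmb and Ifng), against 8.3% of promoters. None of the 3 words was found in the windows of Eomes and Tbx21. A match is a description of letters and was not tested for binding.

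Over both genotypes together, 5 of the 9 genes were lower with HDM than with saline and none was higher, beside 14.3% of all genes called lower and 10.8% called higher. The 5 were Nkg7, Gzma, Prf1, Klrd1 and Ncr1, which cover granule, perforin, granzyme and receptor genes. The changes lay between -0.54 (Gzma) and -0.30 (Prf1). Each of the 5 calls held when any single array was left out, and 4 held without WT saline 2 and 3, where the change of Gzma was -0.53 (adjusted p = 0.0693). Gzmb, Eomes, Tbx21 and Ifng did not pass. Of the 9, 8 had a change below 0, all but Eomes, and the median change was -0.31, against -0.04 over all genes. In bulk tissue fewer cells of a type and less RNA per cell cannot be told apart.

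**Figure D1:**
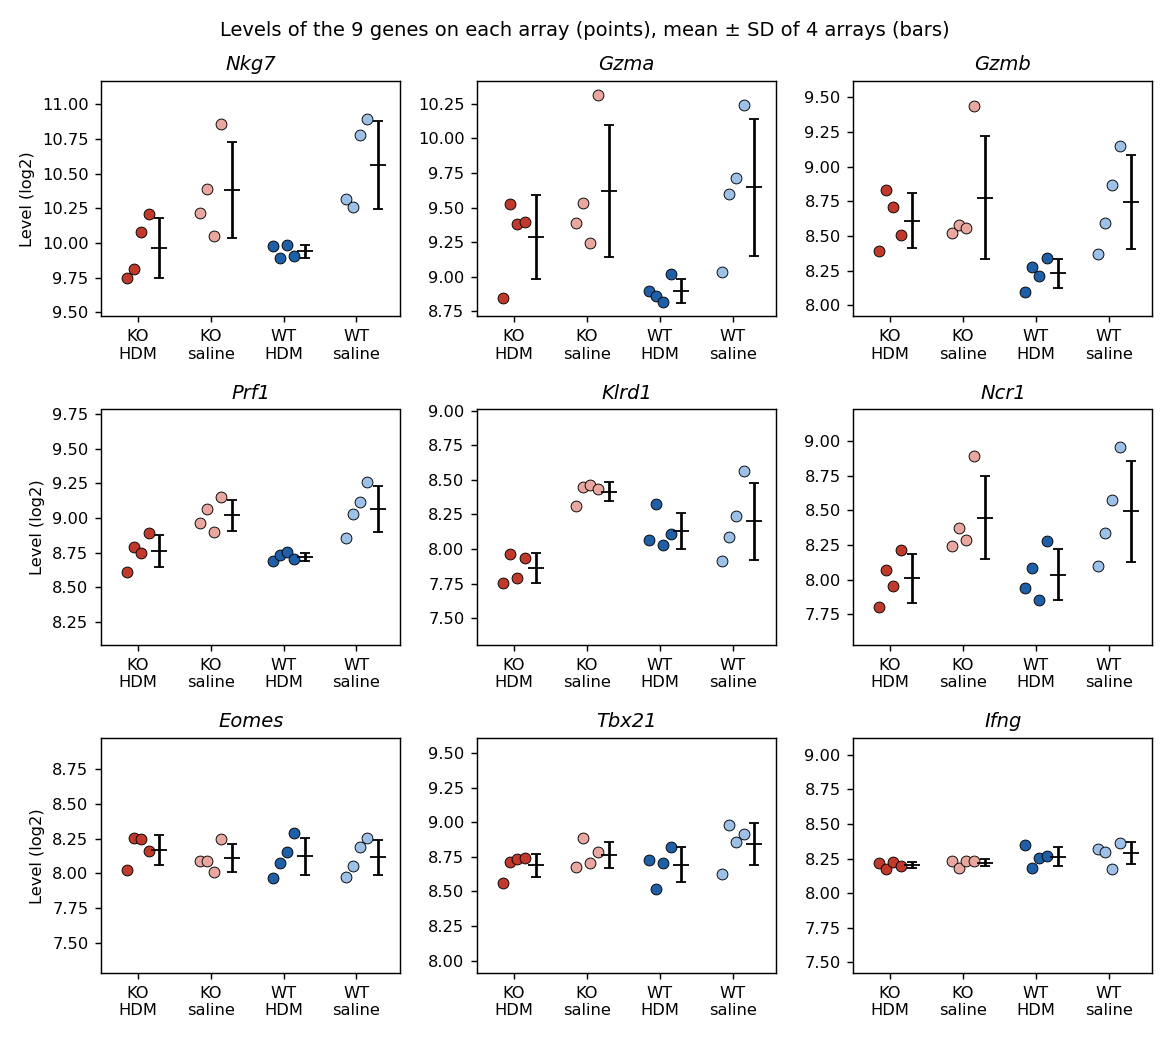
Log2 level of each of the 9 genes on each of the 16 arrays, with KO HDM, KO saline, WT HDM and WT saline from left to right in each panel. Points are arrays, and bars give the mean ± SD of 4 arrays. Nkg7, Gzma, Gzmb and Prf1 on the WT HDM arrays lie below every WT saline array, as do 14.4% of all genes, and Ifng differs little across all 16 arrays.

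Nkg7 encodes a membrane protein of cytotoxic granules. Its levels were 9.75, 9.81, 10.08 and 10.21 on the KO HDM arrays and 10.22, 10.39, 10.05 and 10.86 on the KO saline arrays. On the WT HDM arrays they were 9.98, 9.89, 9.98 and 9.91, and on the WT saline arrays 10.32, 10.26, 10.78 and 10.89. All 4 WT HDM arrays lay below all 4 WT saline arrays, while the KO groups overlapped on 1 KO saline array. Nkg7 fell with HDM by 0.62 (SE 0.16, adjusted p = 0.0151) in WT, a fall of 35.1%. In KO the change was -0.42 (SE 0.16, adjusted p = 0.114, 95% interval -0.75 to -0.08) and did not pass. Over both genotypes it fell by 0.52 (SE 0.11, adjusted p = 0.00351).

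Gzma encodes granzyme A. Its levels were 8.85, 9.53, 9.38 and 9.40 on the KO HDM arrays, and 9.39, 9.53, 9.24 and 10.31 on the KO saline arrays. The WT HDM arrays had 8.89, 8.86, 8.82 and 9.02, and the WT saline arrays 9.03, 9.60, 9.72 and 10.24. The WT groups did not overlap, though WT saline 1 lay close to WT HDM 4, and the KO groups did overlap. Gzma fell with HDM by 0.75 (SE 0.23, adjusted p = 0.0328) in WT, a fall of 40.4%. Over both genotypes it fell by 0.54 (SE 0.16, adjusted p = 0.0223), and in KO the change was -0.33 (SE 0.23, adjusted p = 0.413, 95% interval -0.81 to 0.14). The WT call ended when any 1 of 6 of the 8 WT arrays was left out, with adjusted p between 0.0552 (WT HDM 4) and 0.0924 (WT saline 4), and also with a trend and robust variance (0.0566) and with all probe sets tested (0.0522).

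Gzmb encodes granzyme B. Its levels were 8.39, 8.83, 8.71 and 8.51 on the KO HDM arrays, and 8.52, 8.58, 8.56 and 9.44 on the KO saline arrays. In WT, the HDM arrays had 8.10, 8.28, 8.21 and 8.34, and the WT saline arrays 8.37, 8.59, 8.87 and 9.15. KO saline 4 stood far above its group, and the lowest WT saline array was just above the highest WT HDM array. The HDM change was -0.17 in KO (SE 0.18, adjusted p = 0.632, 95% interval -0.55 to 0.22) and -0.52 in WT (SE 0.18, adjusted p = 0.0579, 95% interval -0.90 to -0.13). Without KO saline 4 the WT change had an adjusted p of 0.0166, and without WT saline 1 it was -0.64 with an adjusted p of 0.0385. KO saline 4 is not in the WT comparison and enters it through the shared spread. Over both genotypes the change was -0.34 (adjusted p = 0.0597, 95% interval -0.61 to -0.07), with an adjusted p of 0.0347 without WT saline 1 and 0.0479 without KO saline 3. The WT change also passed with array weights (adjusted p = 0.0422) and with only the WT groups in the fit (adjusted p = 0.0372). With arrays blocked by replicate number the adjusted p was 0.0275 in WT and 0.0275 over both genotypes. Of the alternatives described below, the WT change passed in 5 of 32 and the change over both genotypes in 3 of 31.

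Prf1 encodes perforin. Its levels were 8.61, 8.79, 8.75 and 8.89 on the KO HDM arrays, and 8.96, 9.06, 8.90 and 9.15 on the KO saline arrays. The WT HDM arrays had 8.69, 8.73, 8.75 and 8.70, and the WT saline arrays 8.85, 9.03, 9.11 and 9.26. In both genotypes all HDM arrays lay below all saline arrays. Prf1 fell with HDM by 0.34 (SE 0.08, adjusted p = 0.00909) in WT, a fall of 21.2%, and by 0.30 (SE 0.06, adjusted p = 0.00129) over both genotypes. In KO the change was -0.26 (SE 0.08, adjusted p = 0.0516, 95% interval -0.43 to -0.09), and it passed without WT saline 1 (adjusted p = 0.0314), WT saline 4 (0.0361), KO saline 3 (0.0416) or KO HDM 4 (0.0231). The WT saline arrays are not in the KO comparison and enter it through the shared spread. Of the alternatives described below, the KO change passed in 9 of 32.

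Klrd1 encodes CD94, which pairs with NKG2 proteins into receptors for a nonclassical MHC molecule. Its levels were 7.75, 7.97, 7.79 and 7.94 on the KO HDM arrays, and 8.31, 8.45, 8.46 and 8.43 on the KO saline arrays. On the WT HDM arrays they were 8.07, 8.32, 8.03 and 8.11, and on the WT saline arrays 7.91, 8.09, 8.24 and 8.56. The KO groups were well separated and the WT groups overlapped. Klrd1 fell with HDM by 0.55 (SE 0.11, adjusted p = 0.00341) in KO, a fall of 31.7%. In WT the change was -0.07 (SE 0.11, adjusted p = 0.659, 95% interval -0.29 to 0.15). The difference between those changes, KO minus WT, was -0.48 (SE 0.15, 95% interval -0.80 to -0.17), with an unadjusted p of 0.00486 and an adjusted p of 0.126 in limma, so the difference between genotypes did not pass. Without WT saline 4 it was -0.60 with an adjusted p of 0.0426. With the mean level of clock genes added to the model it was -0.19 with an adjusted p of 0.915. With that mean added 0 of all genes passed for this difference, against 160 without it, and the median SE was 1.29 times as large.

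Ncr1 encodes NKp46, an activating receptor and a marker of NK cells. Its levels were 7.80, 8.07, 7.95 and 8.22 on the KO HDM arrays, and 8.25, 8.37, 8.28 and 8.89 on the KO saline arrays. In WT, the HDM arrays had 7.94, 8.08, 7.85 and 8.28, and the WT saline arrays 8.10, 8.34, 8.58 and 8.96. The KO groups did not overlap, and the WT groups did. Ncr1 fell with HDM by 0.45 (SE 0.12, adjusted p = 0.0109) over both genotypes, a fall of 26.6%. The change was -0.44 in KO (SE 0.16, adjusted p = 0.108, 95% interval -0.78 to -0.09) and -0.46 in WT (SE 0.16, adjusted p = 0.0613, 95% interval -0.80 to -0.11). The WT change passed without WT saline 1 (adjusted p = 0.0306) or KO saline 4 (adjusted p = 0.0399). Of these, KO saline 4 is not in the WT comparison and enters it through the shared spread. With arrays blocked by replicate number the change passed in WT (adjusted p = 0.00498) and in KO (0.00711). The KO change also passed with the mean level of clock genes in the model (adjusted p = 0.0452). Of the alternatives described below, the WT change passed in 3 of 32 and the KO change in 2 of 32.

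The T-box factors differed less between groups. Eomes was 8.17 ± 0.11 on KO HDM arrays, 8.11 ± 0.10 on KO saline arrays, 8.12 ± 0.14 on WT HDM arrays and 8.12 ± 0.13 on WT saline arrays (SD, n = 4 each). Its change over both genotypes was 0.03 in limma (adjusted p = 0.671, 95% interval -0.09 to 0.15). Tbx21, which encodes T-bet, was 8.69 ± 0.08 on KO HDM arrays, 8.76 ± 0.09 on KO saline arrays, 8.69 ± 0.13 on WT HDM arrays and 8.84 ± 0.15 on WT saline arrays (SD, n = 4 each). Its change was -0.11 in limma (adjusted p = 0.138, 95% interval -0.23 to 0.00). All groups of both genes overlapped.

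Ifng was the flattest of the 9 genes. Its levels were 8.22, 8.17, 8.22 and 8.20 on the KO HDM arrays, and 8.23, 8.18, 8.23 and 8.23 on the KO saline arrays. On the WT HDM arrays they were 8.35, 8.18, 8.25 and 8.27, and on the WT saline arrays 8.32, 8.29, 8.17 and 8.36. The change over both genotypes was -0.02 in limma (adjusted p = 0.684, 95% interval -0.10 to 0.06). The SD over the 16 arrays was 0.060, at the 2.17th percentile of all genes, whereas Gzma had an SD of 0.46, at the 98.6th percentile. Whether the Ifng probe set was above background was not tested, since the deposited table used here held no detection calls.

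Within each genotype fewer of the 9 genes passed than over both. In KO 1 of the 9 passed (Klrd1, lower), beside 3.88% of all genes called lower, 4.96% higher and 8.84% in either direction. In WT 3 passed (Nkg7, Gzma and Prf1, all lower), beside 9.72% of all genes called lower, 7.86% higher and 17.6% in either direction. The groups did not overlap for 3 genes in KO (Prf1, Klrd1 and Ncr1, all lower with HDM; 7.33% of all genes) and for 4 in WT (Nkg7, Gzma, Gzmb and Prf1, all lower with HDM; 14.4% of all genes). The median change of the 9 was -0.26 in KO, against -0.03 over all genes, and -0.34 in WT, against -0.05 over all genes. The comparisons in KO and WT share no array but share the estimate of each gene's spread. The difference between genotypes passed for 0 of the 9 genes, beside 0.802% of all genes. Klrd1 was the 1 gene with an unadjusted p below 0.05 in limma for that difference, beside 15.6% of all genes. Without WT saline 2 and 3 the WT calls were lost, with a Nkg7 change of -0.67 (adjusted p = 0.0533), a Gzma change of -0.74 (adjusted p = 0.150) and a Prf1 change of -0.33 (adjusted p = 0.0732).

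**Figure D2:**
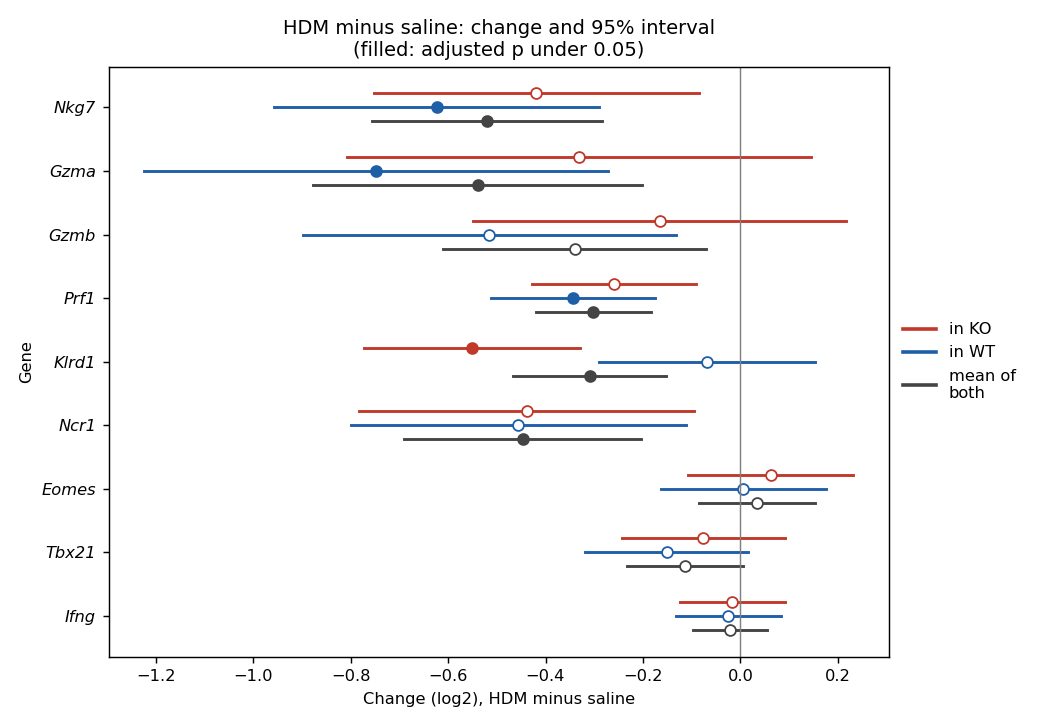
Log2 change, HDM minus saline, of each gene in KO, in WT and as the mean of both genotypes, with 95% intervals from limma. Filled points passed the test. For the mean of both genotypes the intervals of Nkg7, Gzma, Gzmb, Prf1, Klrd1 and Ncr1 lie below 0, and Gzmb is the open point among them.

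KO and WT arrays did not differ past the test for any of the 9 genes under either treatment. Under HDM 0 of the 9 passed, beside 11.7% of all genes, and 1 (Klrd1) had an unadjusted p below 0.05 in limma, beside 26.5%. Under saline 0 of the 9 passed, beside 0.231% of all genes, and 0 had an unadjusted p below 0.05, beside 7.81%. For the mean of both treatments 0 passed, beside 5.85% of all genes, with 0 at an unadjusted p below 0.05, beside 20.9%. Under HDM the KO and WT arrays did not overlap for Gzmb, with a difference of 0.38 (SE 0.18, adjusted p = 0.194, 95% interval -0.00 to 0.76), beside 5.74% of all genes with KO arrays all above WT arrays. They also did not overlap for Klrd1, with a difference of -0.27 (SE 0.11, adjusted p = 0.11, 95% interval -0.49 to -0.05), beside 5.06% of all genes with KO arrays all below WT arrays. Gzma differed by 0.39 under HDM (SE 0.23, adjusted p = 0.292, 95% interval -0.09 to 0.87). Without WT saline 4 the difference of Klrd1 under HDM passed (adjusted p = 0.0425). That array is not in this comparison, so the difference stayed at -0.27 while the SE fell to 0.08. Without all arrays numbered 4 the difference of Gzmb under HDM passed (0.45, adjusted p = 0.0264). With the clock covariate the difference of Klrd1 under HDM was 0.01 (SE 0.15, adjusted p = 0.989). With that covariate 14 of all genes passed under HDM, against 2327 without it, and the median SE was 1.51 times as large.

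**Figure D3:**
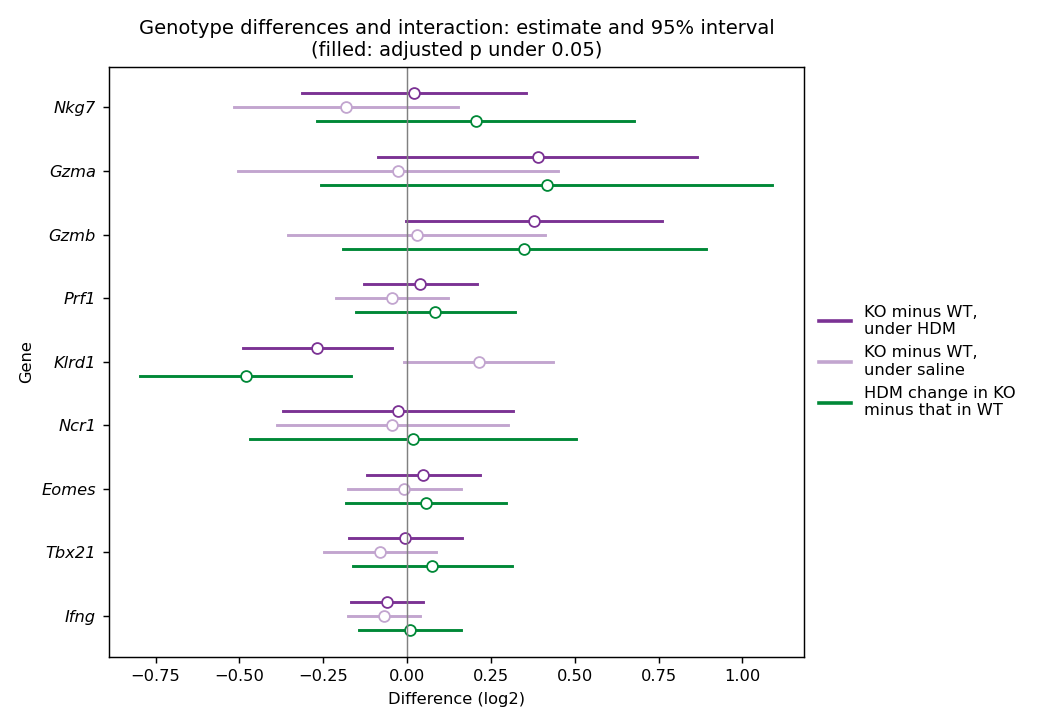
Log2 difference, KO minus WT, of each gene under HDM and under saline, and the HDM change in KO minus that in WT, with 95% intervals from limma. None of the points passed the test (all open). Gzmb at 0.38 and Klrd1 at -0.27 under HDM are the genes whose KO and WT arrays did not overlap.

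Levels of the 9 genes were correlated from array to array. Within their groups, WT saline 4 was highest for 8 of the 9 genes, KO saline 4 for 7, and KO HDM 1 was lowest for 8. Of the 36 pairs of genes, 31 had a correlation above 0 once group means were removed, with a median of 0.61 over the 16 arrays, from -0.173 to 0.929 (Gzma and Gzmb). These arrays share the normalization, and array medians were lowest on array 4 in every group, at 8.78 to 8.80. Their part in the pattern was not tested. Over the 16 arrays the genes whose levels were most like the mean of the 9 were Ccl5 (r = 0.917), Klrk1 (0.886) and Klrc1 (0.883), a chemokine of T and NK cells and 2 NK receptor genes. Close behind were Kif3c (0.875), Hivep2 (0.87), Mrpl30 (0.865), Ube2e3 (0.864) and Suds3 (0.861), none of which is on the lists used here.

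Related genes moved in both directions. Among 21 granule and exocytosis genes, over both genotypes 3 were higher with HDM and 1 lower, including Lyst, a lysosomal trafficking regulator, at 0.36 (adjusted p = 0.00307) and the death ligand gene Fasl at -0.19 (adjusted p = 0.00731). Among 25 NK receptors and adaptors, 6 were higher and 5 lower, with Fcgr3 at 0.93 (adjusted p = 6.18e-05), a receptor that myeloid cells also carry, and Klrg1 at 0.50 (adjusted p = 0.00554). The 5 lower ones were Klrc1 (-0.38), Klrc3 (-0.36), Cd96 (-0.32), Klrk1 (-0.23) and Klre1 (-0.15), and the other 4 higher ones were Slamf7 (0.52), Klrb1a (0.50), Fcer1g (0.36) and Tyrobp (0.27). Without WT saline 2 and 3 this list had 5 higher and 2 lower, and which of the 5 lower ones lost their calls is not given here. Which cells of the lung these changes came from was not tested. Of 10 NK cell markers 7 were lower and 0 higher, of which 4 are among the 9 genes. The other 3 were Klrk1 (adjusted p = 0.0128), Itga2 (-0.16, adjusted p = 0.00757) and Klre1 (adjusted p = 0.0407). Of 6 measured Ly49 receptors 2 were lower, Klra2 at -0.40 (adjusted p = 0.00692) and Klra5 at -0.31 (adjusted p = 0.0011). The median change was 0.01 for the granule list, -0.05 for the receptors, -0.26 for the Ly49 receptors and -0.22 for the NK cell markers, against -0.04 over all genes. Of all genes 10.8% were called higher, 14.3% lower and 25.1% in either direction.

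Of 15 measured transcription factors of NK and type 1 lymphocytes, 7 were higher and 0 lower, beside 10.8% of all genes called higher. The 7 include Gata3 (0.32), which also drives type 2 lymphocytes and is counted among their genes. Which cells of the lung the 7 rises came from was not tested. Bhlhe40 was at 0.86 (adjusted p = 1.35e-05) and Zeb2 at 0.34 (adjusted p = 4.58e-05). Of 21 interferon gamma targets and receptor genes, 3 were higher and 1 lower, with Cd274, the gene of the checkpoint ligand PD-L1, at 0.56 (adjusted p = 0.000541). Cxcl9, a chemokine gene switched on by interferon gamma, had a change of 0.20 and did not pass (adjusted p = 0.538). The share higher on the interferon gamma list was near that of all genes, and the 1 lower gene, Ido1, lost its call without WT saline 2 and 3 (-0.13, adjusted p = 0.147). Of 21 genes of IL-12, IL-15, IL-18 and IL-2 signals, 4 were higher and 4 lower, beside 10.8% and 14.3% of all genes. Il18, a cytokine that raises interferon gamma in NK cells, was at -0.80 over both genotypes (adjusted p = 0.00139), and its change was -1.57 in KO (adjusted p = 0.000222) and -0.03 in WT (adjusted p = 0.922).

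The trafficking list held 12 measured genes, of which 2 were higher and 6 lower, beside 10.8% and 14.3% of all genes. Ccl3, a chemokine that many leukocytes make, was at 1.65 (adjusted p = 0.000409) and Ccl5 at -0.49 (adjusted p = 0.0187). S1pr5, which lets NK cells leave bone marrow and lymph nodes, was at -0.31 (adjusted p = 0.000985).

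**Figure D4:**
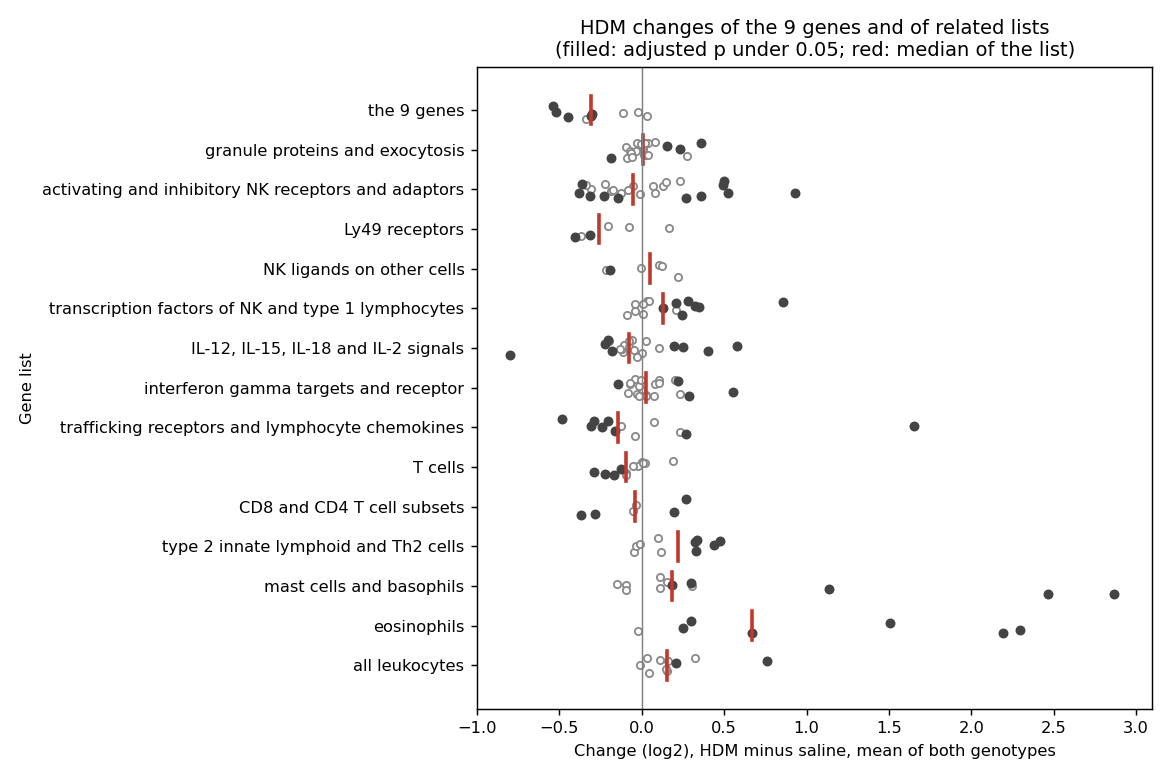
Log2 change with HDM as the mean of both genotypes for the 9 genes and for each measured gene of the related lists. Filled points passed the test and red lines are list medians. The 9 genes lie at or below 0.03, while the transcription factors that passed all lie above 0.

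Markers of T cells and other leukocytes were read beside these results. Of 13 measured T cell genes 4 were lower with HDM over both genotypes and 0 higher, beside 14.3% and 10.8% of all genes. Of the 4, Cd3d lost its call without WT saline 2 and 3 (-0.11, adjusted p = 0.128). Cd8a, a marker of cytotoxic T cells, was lower, at -0.37 (adjusted p = 0.000973), and so was Cd8b1, at -0.28 (adjusted p = 0.0176). Cd4 was higher, at 0.27 (adjusted p = 0.0146). Cd8a stood at 8.62 to 8.87 on KO HDM arrays and 9.04 to 9.27 on KO saline arrays, and at 8.79 to 9.03 on WT HDM arrays and 8.98 to 9.50 on WT saline arrays. Cd3e had a change of -0.00 and did not pass (adjusted p = 0.983). The mean level of the T cell list ranged from 9.23 to 9.36 on KO HDM arrays, 9.28 to 9.44 on KO saline arrays, 9.22 to 9.40 on WT HDM arrays and 9.33 to 9.37 on WT saline arrays. The part of T cells in the change of the 9 genes was not tested.

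Markers of other leukocytes differed by cell type. Their counts are over both genotypes, where 10.8% of all genes were called higher and 14.3% lower. Of 7 measured eosinophil genes 6 were higher and 0 lower, with a median of 0.67, and of 13 mast cell and basophil genes 5 were higher and 0 lower. Of 8 measured B cell genes 0 were higher and 0 lower, with a median of -0.13, and of 6 plasmacytoid dendritic cell genes 2 were higher and 0 lower, with a median of -0.05. Of 10 genes common to all leukocytes 2 were higher, with Itgb2 at 0.76 (adjusted p = 4.45e-05), and Ptprc had a change of 0.11 and did not pass (adjusted p = 0.247). The mean level of this list ranged from 11.53 to 11.97 on KO HDM arrays, 11.35 to 11.63 on KO saline arrays, 11.20 to 11.70 on WT HDM arrays and 11.31 to 11.50 on WT saline arrays. The part of such a shift in the levels of the 9 genes was not tested. Clock genes also differed between groups, with 7 of 14 higher and 1 lower with HDM in WT and 1 of 14 higher in KO. All genes had shares of 7.86% higher and 9.72% lower in WT, and 4.96% and 3.88% in KO. Without WT saline 2 and 3 there were 4 higher and 1 lower in WT and 0 in KO. The mean level of the clock list ranged from 9.99 to 10.24 on KO HDM arrays, 9.95 to 10.13 on KO saline arrays, 10.22 to 10.61 on WT HDM arrays and 10.04 to 10.09 on WT saline arrays. With this mean added to the model the median SE in WT was 1.64 times as large and 0 of the 9 genes passed in WT, and the changes there were -0.75 for Nkg7 (adjusted p = 0.151), -1.11 for Gzma (adjusted p = 0.123) and -0.46 for Prf1 (adjusted p = 0.0673).

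Between genotypes, H60b and Raet1d, which encode ligands of the activating receptor NKG2D, differed in opposite directions. The KO strain was not given, so in the differences below loss of Vldlr and strain background cannot be told apart. Levels of H60b were 6.94, 6.88, 6.87 and 6.75 on KO HDM arrays and 7.44, 7.22, 7.38 and 7.41 on WT HDM arrays. On KO saline arrays they were 6.73, 6.80, 6.82 and 6.80, and on WT saline arrays 7.28, 7.27, 7.27 and 7.10. All KO arrays lay below all WT arrays under both treatments, as did 5.06% of all genes under HDM and 3.38% under saline. The difference of H60b was -0.50 under HDM (adjusted p = 0.000252) and -0.44 under saline (adjusted p = 0.00428), and the saline call was lost without WT saline 2 and 3 (-0.40, adjusted p = 0.0777). Raet1d was at 6.60, 6.70, 6.76 and 6.54 on KO HDM arrays and 5.95, 5.76, 6.04 and 6.64 on WT HDM arrays. On KO saline arrays it was at 6.70, 6.70, 6.88 and 6.78, and on WT saline arrays at 6.49, 6.35, 6.50 and 6.35. All KO arrays lay above all WT arrays under saline, as for 3.16% of all genes, and WT HDM 4 lay within the KO range under HDM. Raet1d was higher in KO under HDM by 0.55 (adjusted p = 0.0118), and under saline the difference was 0.34 and did not pass (adjusted p = 0.433). Under saline no gene but H60b of the NK receptor, NK ligand, Ly49, granule, transcription factor, cytokine signal, interferon gamma and trafficking lists passed between genotypes. Under HDM 1 of 6 measured NK ligands was higher in KO and 2 lower, and 3 of 25 NK receptors and adaptors were higher and 3 lower. Of all genes 5.84% were called higher and 5.83% lower. The largest of these receptor differences were Klrg1, higher in KO by 1.01 (adjusted p = 0.00172), and Klri1, another receptor gene of NK cells, at -0.95 (adjusted p = 0.0235).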

How the data were processed

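Labelled DNA from 50 ng of total lung RNA was hybridised to 16 arrays in 4 groups of 4, per the labels' protocols. The deposited values are log2 levels per probe set. Per the submitters' processing notes the authors used RMA and Affymetrix Expression Console. Their versions, and the annotation's genome build, were not stated in what was used here. Arrays have no read depth, and their number limits the precision.

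Of 35556 probe sets, 21789 had 1 gene symbol, 1621 several and 12146 none named here. The highest-mean probe set was kept for each of 19938 genes. The deposited values were fitted in R 4.3.3 with limma 3.58.1 (4 group means, 12 residual degrees of freedom, eBayes), and p-values were adjusted over all genes by the Benjamini-Hochberg method within each of 7 comparisons. Tests were two-sided. No filter on dim genes was applied. The 3 words searched in promoters were counted over both strands of RefSeq windows of GRCm38.p6.

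The members and the lists were chosen with earlier results of these data known. The text names from each list up to 4 of the largest changes that passed, filled to a pair by the smallest p, plus a few genes named everywhere. Klrc3, Klre1, Fcer1g and Tyrobp were named after their values were seen. The limma fit was tested on simulated data for HDM against saline in WT. Alternatives were other normalizations, filters, variance models, array weights, probe set choices, thresholds, a replicate block, a clock covariate, and fits without single arrays, without WT saline 2 and 3, or (added after seeing the data) without all arrays of a replicate number. Of 24 pairs of arrays with the same number, 7 had a correlation of deviations over 0.1, with a range of -0.276 to 0.333. The highest was between KO saline 4 and WT saline 4. The numbers were not taken to pair samples. These correlations are over all genes and cannot exclude a batch shared by arrays of the same number, so fits with the replicate block are given as alternatives.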

Additional observations from a re-analysis of the deposited data

Results flagged for a closer look

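The highest or lowest array of each group was set against Dixon's 95% critical value for the 9 genes in 4 groups, 36 sets in all. Chance passes it in about 5% of sets. Gzmb on KO saline 4 was 9.44, against 8.52 to 8.58 on the other KO saline arrays, a gap of 0.934 of the range. Ifng on KO saline 2 was 8.18, against 8.23 on the other KO saline arrays, a gap of 0.895 of the range.

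None of the 9 genes had a change with HDM that differed between genotypes past the test. Among the related genes named, the HDM change in KO minus that in WT was -1.54 for Il18 (limma adjusted p = 0.0289), 0.81 for Nos2 (0.0424) and -0.66 for Trat1 (0.0421). It was 1.02 for Ccr8 (0.0147), 0.68 for Il17rb (0.0175), 1.48 for Ear6 (0.0277) and -1.27 for the clock gene Dbp (0.00744). Without WT saline 2 and 3 none of these 7 passed, with adjusted p between 0.065 (Dbp) and 0.166 (Nos2 and Ear6).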

How the results depend on the processing

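The number of the 9 genes past the test with HDM was 1 in KO, 3 in WT and 5 over both genotypes. With 1 array left out at a time it ranged from 1 to 2 in KO, 2 to 5 in WT and 5 to 6 over both genotypes. For KO against WT it ranged from 0 to 1 under HDM, 0 to 0 under saline and 0 to 0 for the mean of both treatments, and for the difference between genotypes from 0 to 1. In KO it was 2 with the filter at the 25th percentile, with a trend and robust variance, with array weights and at an adjusted p below 0.10, and 3 with the replicate block (Klrd1, Prf1 and Ncr1) and with the clock covariate. It was 0 with the filter at the 50th percentile, which left only Nkg7 and Gzma measured, and 0 without all arrays numbered 3. In WT it was 5 with the replicate block (Gzmb and Ncr1 added) and at an adjusted p below 0.10, 0 with the clock covariate, 0 without WT saline 2 and 3, 1 without all arrays numbered 2, 0 without those numbered 3 and 1 without those numbered 4. Over both genotypes it was 2 with the filter at the 50th percentile and 2 without all arrays numbered 3. Gzmb also passed over both genotypes with the replicate block (adjusted p = 0.0275). For KO against WT under HDM it was 1 without all arrays numbered 4. The clock covariate multiplied the median SE in WT by 1.64. Il12rb1 had a change of -0.22 with HDM in WT and of 0.0413 with the clock covariate. The cause of these changes was not tested. The calls of Nkg7 and Prf1 over both genotypes held under all alternatives that measured them, with a highest adjusted p of 0.0237 for Nkg7 and 0.0150 for Prf1. The number of arrays limits the precision, and signal over background was not measured here.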

Other observations

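After group means were removed, the genes whose levels were most like the mean of the 9 over the 16 arrays were Tln1 (r = 0.901), Ankrd27 (0.896) and Vps26b (0.893), none of which is on the lists used here. Of 10 measured type 2 lymphocyte genes, 5 were higher and 0 lower with HDM in KO, beside 4.96% of all genes called higher. In WT 0 were higher and 0 lower, with a median of -0.02, beside 17.6% of all genes called in either direction. Over both genotypes 5 were higher and 0 lower, beside 10.8% of all genes called higher, and they include Gata3, which is also on the transcription factor list. Over both genotypes Ccr8 was at 0.48 (limma adjusted p = 0.00107) and Il17rb at 0.44 (adjusted p = 0.000113).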
